A study of Arabidopsis thaliana with 10 samples.

Results

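The ex1/flu and ex2/flu lines of Arabidopsis thaliana were compared on 4 of the study's 10 ATH1 arrays, 2 for each line. Both lines carry the flu mutation and differ in which EXECUTER gene carries a T-DNA insertion: EX1 (AT4G33630, line SALK 002088) in ex1/flu and EX2 (AT1G27510, line SALK 012127) in ex2/flu. The arrays of ex1/ex2/flu (both insertions), of flu without an insertion and of wild-type Columbia, 2 each, entered the same fit and show where the 2 lines lie. The flu1-1 allele, shared by every group except wild type, arose in Landsberg erecta and reached Columbia through 5 backcrosses, after which each insertion line was crossed with it. The triple mutant was picked from the F2 of ex1/flu crossed with ex2/flu, and each gene is represented by a single insertion allele. An array held RNA from rosette leaves of 5 pooled mature plants, named a biological replicate in the labels. All plants had grown in constant light of 100 µmol m-2 s-1 up to bolting, stood 8 h in darkness and were then given light again for 30 min before harvest.

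FLU is a plastid protein that holds back the synthesis of chlorophyll precursors at night. Without it protochlorophyllide builds up in darkness, and on return to light this photosensitizer passes its energy to oxygen, so that singlet oxygen forms inside the plastid. EX1 and EX2 are related plastid proteins known to be needed for the change in nuclear gene expression that follows. Setting the lines against each other shows whether leaves respond alike when either protein is missing. In every difference below ex2/flu is subtracted from ex1/flu on the log2 scale, so a negative value means less signal in ex1/flu, and errors are standard errors from limma.

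EX1 itself was measured first. Its probe set gave signals (scaled fluorescence intensities in arbitrary units, the unit of all signals below) of 248 and 236 in ex1/flu, against 631 and 561 in ex2/flu. The remaining arrays gave 185 and 225 in ex1/ex2/flu, 772 and 771 in flu and 606 and 772 in wild type. The ex1/flu arrays thus lay with those of ex1/ex2/flu and below all 6 arrays with an intact EX1, and the difference of -1.30 ± 0.17 (SE, n = 2 per line) had a limma adjusted p of 0.000399. The signal did not vanish in ex1/flu: both arrays stayed above the 40th percentile of their array, which lay between 85.5 and 92.6. Where the probes sit relative to the insertion was not analysed here. EX2 and FLU were not analysed here, since the annotation used assigned no probe set to them.

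Median signals of the 10 arrays ran from 158 to 171. Replicates correlated at 0.973 in ex1/flu and 0.981 in ex2/flu across the 14435 probe sets tested, and their median SD was 0.181 and 0.145 on the log2 scale. An exact permutation test of 2 arrays against 2 can reach no two-sided p below 0.333, so tests came from limma fitted across all probe sets, and the number of arrays limits their precision. Poly-A control transcripts, added to the RNA before labelling, averaged log2 7.52 and 6.45 in ex1/flu and 6.98 and 6.42 in ex2/flu, with replicate 1 the higher in both lines. Of the leaf markers, the 10 measured photosynthesis genes had line means between log2 11.09 and 14.47. The only measured root marker, the myrosinase PYK10, differed by -0.21 between the lines (adjusted p 0.982), and the guard cell markers FMA and AT1G22690 by -0.01 and 0.11 (adjusted p of at least 0.997). No marker of inflorescence, epidermis or phloem was among the genes measured here.

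The lines differed mainly in 1 direction, with lower signals in ex1/flu leaves than in ex2/flu leaves. At a Benjamini-Hochberg adjusted p below 0.05, 264 probe sets were lower in ex1/flu than in ex2/flu (1.83% of 14435) and 14 were higher (0.097%). By at least 2-fold, 182 were lower (1.26%) and 3 higher (0.0208%). All 278 had both arrays of one line beyond both of the other. That separation is a weak mark by itself, since 1962 probe sets (13.6%) were separated downwards and 2434 (16.9%) upwards. At an unadjusted p below 0.05 the counts were 666 lower and 441 higher. In leaf tissue, fewer cells that express a gene and less RNA per cell cannot be told apart. Without array 2 of ex2/flu the lower count was 166, and without array 1 of ex1/flu the higher count was 27.

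Most of the probe sets lower in ex1/flu belonged to the response of flu, meaning here its difference from wild type at the 1 time sampled. Against wild type, flu had 408 higher probe sets (2.83%) and 147 lower ones (1.02%), 2 sets defined by a contrast that does not hold the arrays of the 2 lines. The contrasts share each probe set's estimate of the spread, since all 10 arrays entered 1 fit, so their calls are not independent. Of the 408, 192 were lower in ex1/flu than in ex2/flu (47.1%, beside 1.83% of all probe sets), 2 were higher and 214 were not called. The median difference over the 408 was -0.735, against 0.031 over all probe sets, and 303 were negative in both replicate pairs (3570 of all 14435). Those 192 made up 72.7% of the 264. Among the 147 lowered in flu, 9 were lower in ex1/flu (6.12%, beside 1.83% of all) and 5 higher (3.4%, beside 0.097% of all). Across the 14435 probe sets the response of flu and the difference of the lines had a Pearson r of -0.353, and across the 555 called in flu -0.588. These describe probe sets, which are not independent replicates. The median over the raised probe sets was -1.126 when array 1 of wild type was left out, with 224 probe sets then called higher in flu.

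**Figure D1:**
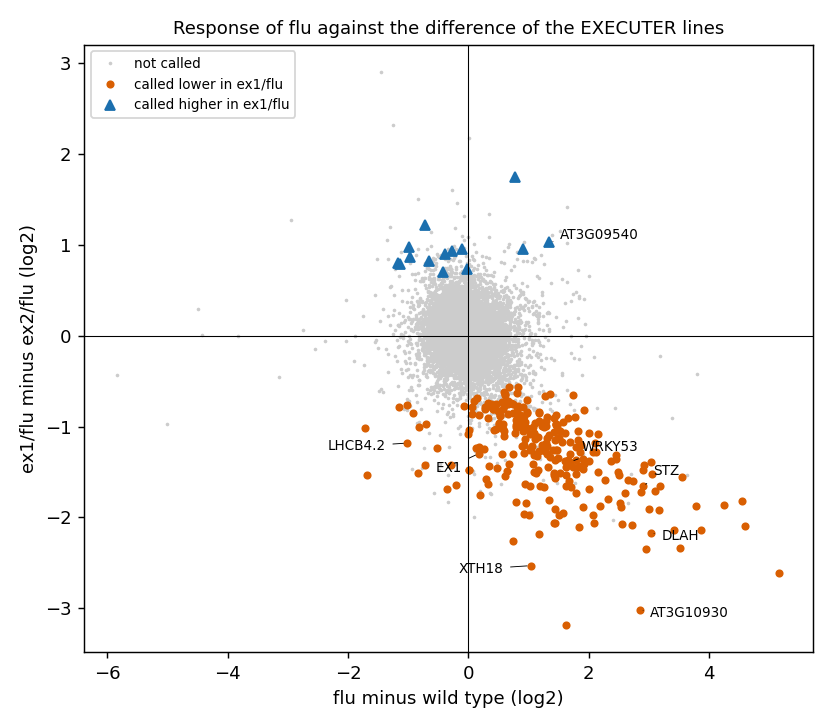
Each point is 1 of the 14435 probe sets, with flu minus wild type on the x axis and ex1/flu minus ex2/flu on the y axis, both log2. The 264 probe sets lower in ex1/flu (orange) lie mainly at the right, where signal was raised in flu, while the 14 higher in ex1/flu (blue) lie on both sides.

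The stronger a probe set was raised in flu, the larger was the gap between the lines. The 408 were split by their rise into 4 groups of 102. In the group least raised, 23.5% were lower in ex1/flu and the median difference was -0.276. The next groups had 32.4% with a median of -0.444, and 58.8% with -0.975. Of the group most raised, 73.5% were lower, with a median of -1.401. Both replicate pairs gave this order of medians: -0.269, -0.418, -1.001 and -1.394 for arrays 1, and -0.273, -0.470, -0.943 and -1.428 for arrays 2. The top group had a larger share of lower probe sets than the bottom one in all 20 alternative settings, and the shares rose over the 4 groups in 19 of them. Without a filter on dim probe sets the first 2 were 38.5% and 35.4%. Shares moved widely as the raised set changed, and the bottom group's was 6.73% without array 1 of ex2/flu and 53.1% without array 2 of flu.

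**Figure D2:**
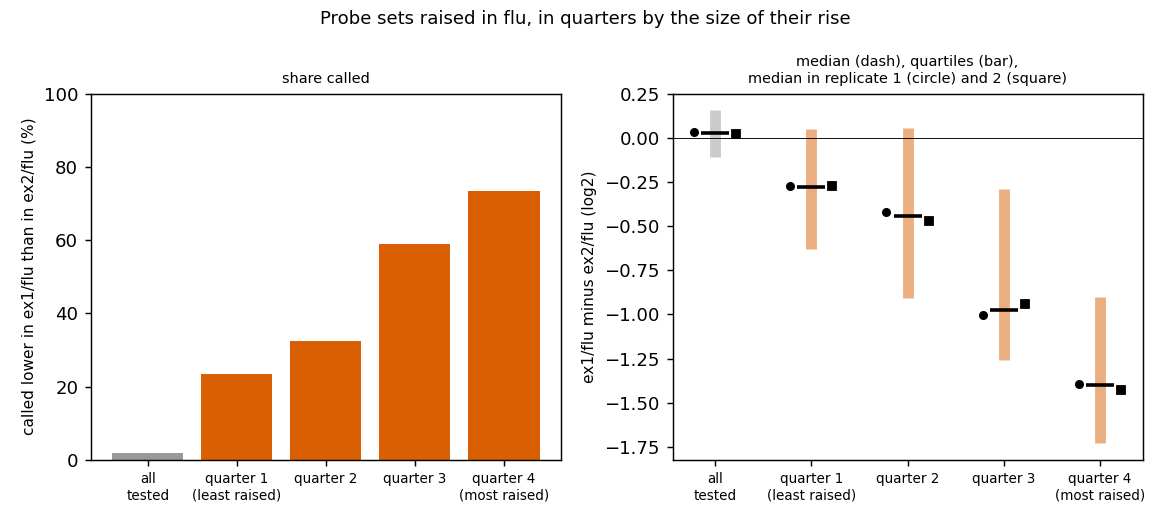
Left, the percentage of probe sets called lower in ex1/flu than in ex2/flu, for all 14435 tested and for 4 groups of the 408 raised in flu, in order of their rise. Right, the log2 difference ex1/flu minus ex2/flu in the same groups, with medians (dash), quartiles (bar) and the median in each replicate pair (symbols): the median goes down to -1.401 in the most raised group, beside 0.031 over all.

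The lines were also set beside flu and the triple mutant. Over the 408 raised probe sets, the median of ex1/flu minus flu was -0.712 and that of ex2/flu minus flu 0.088. Signals in ex2/flu were above flu for 230 of the 408 (7062 of all 14435), and signals in ex1/flu below flu for 392 (7066 of all). Limma called 134 of the 408 lower in ex1/flu than in flu at the adjusted p of 0.05 (1.14% of all probe sets were). For ex2/flu, only 4 were called higher than in flu (0.333% of all) and 22 lower (102 of all 14435). Against ex1/ex2/flu the medians were 0.214 for ex1/flu and 0.937 for ex2/flu. At the adjusted p of 0.05, 3 of the 408 were higher in ex1/flu than in ex1/ex2/flu (0.0346% of all probe sets were), whereas 223 were higher in ex2/flu than in ex1/ex2/flu (2.47% of all). Against wild type, ex1/flu was higher for 93 of the 408 (0.72% of all) and ex2/flu for 280 (2.75% of all). Within each of these 3 pairs of comparisons the flu, triple-mutant or wild-type arrays are shared. The 408 were themselves chosen on high flu and low wild-type signals, which tends to place both lines below flu and above wild type, so the values against flu and wild type are descriptions.

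Pairing the arrays by replicate number gave the same picture. The median over the 408 was -0.726 for ex1/flu 1 minus ex2/flu 1 and -0.703 for ex1/flu 2 minus ex2/flu 2. Across the 278 called probe sets, which were selected on the mean of both pairs, the pairs correlated at 0.904, and across all 14435 at 0.43. The labels do not say that a number marks a day or batch. The poly-A level was higher on array 1 than on array 2 in both lines, as given above. A term that split the arrays into high and low poly-A level was tried in the fit. Both lines had 1 high and 1 low array, so this term left each difference between the lines as it was (EX1 -1.298). The median over the raised probe sets was then -0.618, only because another set of probe sets was called raised in flu.

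**Figure D3:**
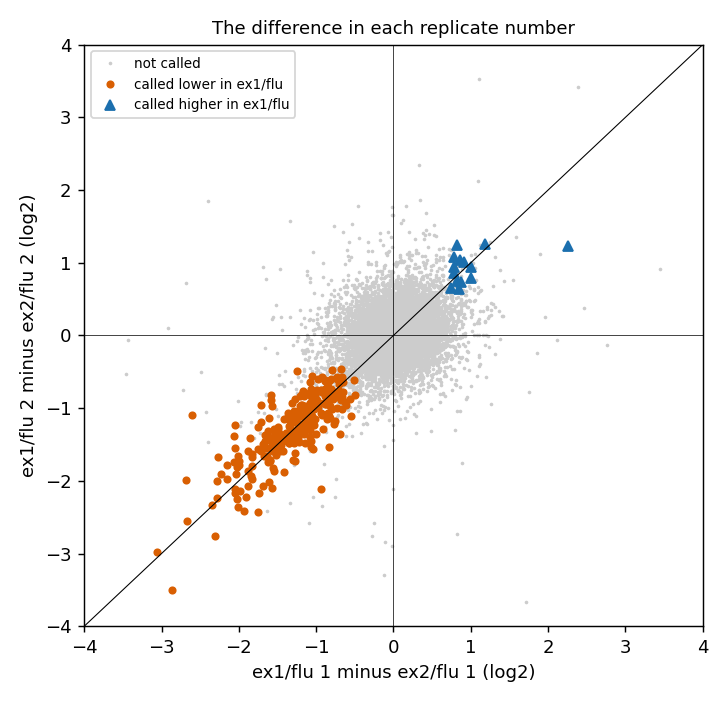
Log2 difference ex1/flu minus ex2/flu for replicate 1 (x axis) and replicate 2 (y axis), 1 point per probe set, with the line of equality. The 264 called lower (orange) are below 0 in both pairs and the 14 called higher (blue) above 0 in both. Any pairing would give these signs, since the arrays of the lines did not overlap for the called probe sets.

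The gene groups below are chosen lists, and their counts cover the list members that were measured, not whole families. Of 7 measured genes listed as reporters of singlet oxygen in flu, 5 were lower in ex1/flu, with a median of -1.655 over the 7. The list was drawn up with results of flu known, and 1.55% of all probe sets with 1 known locus were lower (121 of 7786, median 0.032). STZ (AT1G27730), a zinc-finger repressor of stress genes, gave 2312 and 2850.0 in ex1/flu, against 7798 and 8379.5 in ex2/flu. Its difference was -1.65 ± 0.15 (limma adjusted p 2.3e-05, n = 2 per line), -1.75 in replicate 1 and -1.56 in replicate 2. The other lines gave 1569.9 and 1425 in ex1/ex2/flu, 5779 and 6629.6 in flu and 903 and 763 in wild type, so ex1/flu stood between the triple mutant and flu while ex2/flu exceeded flu on both arrays. Even so, STZ in ex1/flu remained above wild type by 1.63 ± 0.15 (adjusted p 1.75e-05). AT5G64870, a flotillin-like membrane protein, gave 159.7 and 150.4 in ex1/flu, against 644 and 769.7 in ex2/flu, a difference of -2.18 ± 0.28 (adjusted p 0.000289). With 256 and 155 in wild type, its ex1/flu arrays lay at the lower end of the wild-type range or just under it. AT3G02840, an armadillo-repeat protein induced early by elicitors, gave 287 and 267 in ex1/flu, against 1134 and 1177 in ex2/flu, with a difference of -2.06 ± 0.16 (adjusted p 1.08e-05) and 266 and 259.8 in wild type.

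The EF-hand proteins AT3G01830 and AT5G39670 complete the reporters that passed. AT3G01830 gave 558 and 801 in ex1/flu, against 1789 and 2530.2 in ex2/flu (-1.67 ± 0.22, adjusted p 0.000394). For AT5G39670 the values were 891 and 1261 in ex1/flu, against 1748 and 2138 in ex2/flu (-0.87 ± 0.18, adjusted p 0.0132), and the difference was -0.62 (adjusted p 0.135) without ex1/flu array 1 and -0.72 (adjusted p 0.174) without ex2/flu array 2. The TIR-domain gene AT1G57630 (-1.01, adjusted p 0.258) and AT3G28580, an AAA-type ATPase long used as a flu marker (-0.61, adjusted p 0.844), did not pass. AT3G28580 was dim, with 82.6 and 62.4 in ex1/flu, against 91.8 and 131 in ex2/flu, so its arrays did not overlap, but both ex1/flu arrays were under the filter level.

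Transcription factors of the WRKY family, which steer defence and senescence, had 1 of 3 listed members lower in ex1/flu (median -1.359), and 1 of 5 over all measured genes with a WRKY symbol (median -0.788). WRKY53 (AT4G23810) gave 1127 and 986 in ex1/flu, against 3168 and 2402 in ex2/flu, a difference of -1.39 ± 0.19 (adjusted p 0.000413). In the other groups it gave 748 and 701 in ex1/ex2/flu, 2184 and 2498 in flu and 857 and 604 in wild type. On the log2 scale ex1/flu was thus nearer to wild type than to flu, and the ex2/flu arrays overlapped those of flu. WRKY6 (-1.36, adjusted p 0.064) and WRKY22 (-0.79, adjusted p 0.139) did not pass. AT2G28200, the other measured member of the list of stress zinc-finger factors that holds STZ, differed by 0.23 (adjusted p 0.958).

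**Figure D4:**
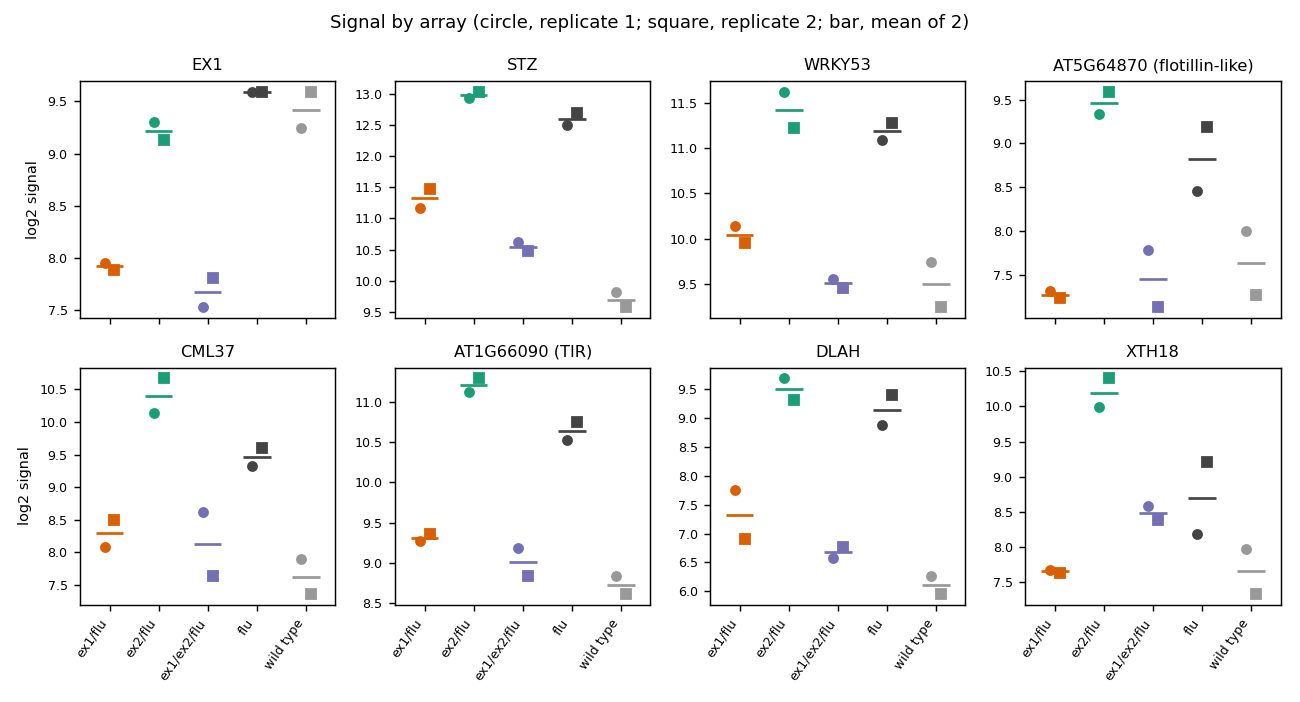
Log2 signal on each of the 10 arrays for 8 genes, with groups in the order ex1/flu, ex2/flu, ex1/ex2/flu, flu and wild type (circle, replicate 1; square, replicate 2; bar, mean of 2). In all 8 panels both ex1/flu arrays lie below both ex2/flu arrays, and each panel has its own axis.

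The 3 measured members of the list of calcium sensors and MAP kinases were lower in ex1/flu (median -2.108). Over all 6 measured genes with a CML symbol (calmodulin-like) 3 were lower and the median was -0.718. CML37 (AT5G42380), a calmodulin-like sensor, gave 272 and 363 in ex1/flu, against 1127 and 1629.9 in ex2/flu, a difference of -2.11 ± 0.29 (adjusted p 0.000439). In flu it gave 642 and 778, so both ex2/flu arrays were above flu and both ex1/flu arrays below it. AT5G66650, of the calcium uniporter family, gave 394 and 280.2 in ex1/flu, against 1597 and 1335 in ex2/flu (-2.13 ± 0.25, adjusted p 0.000111). It was raised in flu, with 840.0 and 1326 in flu and 77.8 and 67.1 in wild type, and ex1/flu remained above wild type by 2.20 ± 0.25 (adjusted p 0.000112). CML38 (AT1G76650) gave 518 and 564 in ex1/flu, against 1386 and 2072 in ex2/flu (-1.65 ± 0.31, adjusted p 0.00679), and -1.36 (adjusted p 0.0879) without ex2/flu array 2. The third CML gene called, CML23 (AT1G66400, named after its values were seen), gave 157 and 191 in ex1/flu, against 363 and 445 in ex2/flu (-1.22 ± 0.19, adjusted p 0.00175).

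Immune signalling genes with a TIR domain, the domain by which many plant resistance proteins signal, showed 4 of 7 measured members lower and none higher (median -1.3). AT1G66090 gave 618 and 656 in ex1/flu, against 2224 and 2500.2 in ex2/flu, a difference of -1.89 ± 0.17 (adjusted p 2.3e-05). It gave 583 and 456 in ex1/ex2/flu, 1467 and 1723 in flu and 457 and 393 in wild type. A cluster of neighbours on chromosome 1 held the other 3. AT1G72920 gave 724 and 652 in ex1/flu, against 2063 and 1762 in ex2/flu (-1.47 ± 0.17, adjusted p 0.000113). AT1G72940 gave 1416 and 1019 in ex1/flu, against 3142 and 2845 in ex2/flu (-1.32 ± 0.18, adjusted p 0.000394). For AT1G72900 the values were 773 and 674 in ex1/flu, against 1837 and 1669 in ex2/flu (-1.28 ± 0.17, adjusted p 0.000377). In all 3 the ex1/flu arrays lay above every array of wild type and of ex1/ex2/flu and below every array of ex2/flu and of flu. The neighbours belong to 1 family, and hybridisation of a transcript to the probes of another was not tested. Another neighbour, AT1G72950, lay below the filter level in ex1/flu and did not pass (-1.30, adjusted p 0.143), nor did AT1G57630 and AT2G20142 (-0.75, adjusted p 0.36).

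Of 3 listed and measured U-box ubiquitin ligases known to damp immune signalling, 2 were lower in ex1/flu, and these were 2 of 8 over all measured genes with a PUB symbol (median -0.518). PUB23 (AT2G35930) gave 202 and 155 in ex1/flu, against 472 and 379 in ex2/flu (-1.25 ± 0.23, adjusted p 0.00549). PUB24 (AT3G11840) gave 438 and 395 in ex1/flu, against 787 and 648 in ex2/flu (-0.78 ± 0.17, adjusted p 0.0216). Both calls depended on single arrays: PUB23 was -1.06 (adjusted p 0.0558) without ex1/flu array 2 and -1.10 (adjusted p 0.0959) without ex2/flu array 1, and PUB24 -0.70 (adjusted p 0.109) without ex1/flu array 2 and -0.64 (adjusted p 0.262) without ex2/flu array 1. PUB22 was at -1.11 (adjusted p 0.159) and below the filter level in ex1/flu.

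Among 4 listed and measured jasmonate genes 2 were lower (median -0.754). DLAH (AT1G30370), an acylhydrolase related to the lipase that starts jasmonate synthesis, gave 215 and 119 in ex1/flu, against 820.3 and 636 in ex2/flu. Its difference was -2.17 ± 0.27 (adjusted p 0.000187), -1.93 in replicate 1 and -2.41 in replicate 2. With 472 and 674 in flu and 76.6 and 62.2 in wild type, the ex1/flu arrays lay between wild type and flu, and those of ex2/flu overlapped flu. OPCL1 (AT1G20510), a CoA ligase of jasmonate synthesis, gave 655 and 657 in ex1/flu, against 1214 and 1091 in ex2/flu (-0.81 ± 0.18, adjusted p 0.0255), and its call was lost when any of the 4 arrays was left out (-0.89 to -0.73, adjusted p 0.0115 to 0.208 over the 10 single omissions). The defence genes THI2.1 (-0.47, adjusted p 0.802) and PDF1.2 (-0.70, adjusted p 0.437), both jasmonate-responsive, did not pass. Of 2 measured salicylate and immunity genes none passed: the chitinase gene CHI was at 0.76 (adjusted p 0.134) and the lipase-like SAG101 at -0.03 (adjusted p 0.999).

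The largest difference of a gene with a probe set of its own was that of AT3G10930, which encodes a short protein and lies within 4 Mb of FLU. It gave 135 and 168 in ex1/flu, against 1131 and 1322 in ex2/flu, 0.123 times the ex2/flu level in ex1/flu (-3.02 ± 0.21, adjusted p 3.73e-06). With 98.8 and 83.5 in ex1/ex2/flu, 715 and 564 in flu and 99.7 and 78.1 in wild type, ex1/flu was close to wild type and ex2/flu was above flu on both arrays. AT2G22880, a VQ-motif protein of the kind that binds WRKY factors, gave 166 and 267 in ex1/flu, against 1056 and 1567 in ex2/flu (-2.61 ± 0.49, adjusted p 0.00729). In flu it gave 555 and 817, between the 2 lines, and its call was lost with values of -2.27 (adjusted p 0.0719) without ex1/flu array 1 and -2.33 (adjusted p 0.076) without ex2/flu array 2. AT1G05575 gave 606 and 911 in ex1/flu, against 2959 and 3639 in ex2/flu (-2.14 ± 0.23, adjusted p 7.36e-05). AT1G76600 gave 1032 and 1656 in ex1/flu, against 4311 and 5553 in ex2/flu (-1.90 ± 0.22, adjusted p 0.000118), with array 2 above array 1 in both lines for both of these genes. AT4G37290, the precursor of the secreted immune peptide PIP2, gave 299 and 451 in ex1/flu, against 1188 and 1545 in ex2/flu (-1.88 ± 0.22, adjusted p 0.00013). The transcribed pseudogene AT3G48650 gave 244 and 203 in ex1/flu, against 814 and 908 in ex2/flu (-1.95 ± 0.21, adjusted p 8.32e-05), with 291 and 221 in wild type.

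A smaller group of 63 probe sets, 23.9% of the 264, was lower in ex1/flu than in ex2/flu without being called in flu against wild type. Their ex2/flu mean lay above flu for 61 of the 63 (7062 of all 14435), and their ex1/flu mean below wild type for 43 (7653 of all). Choosing probe sets with ex1/flu below ex2/flu and no call in flu favours both, so these counts only describe the 63. At the adjusted p of 0.05, 10 were lower in ex1/flu than in flu (1.14% of all probe sets were) and 4 were higher in ex2/flu than in flu (0.333% of all). XTH18 (AT4G30280), an enzyme that cuts and rejoins xyloglucan in cell walls, was the most different of those with a gene name. It gave 206 and 199 in ex1/flu, against 1015 and 1348 in ex2/flu (-2.53 ± 0.28, adjusted p 8.32e-05). The other arrays gave 385 and 334 in ex1/ex2/flu, 291 and 591 in flu and 252 and 162 in wild type, so both ex2/flu arrays exceeded all 8 others. Against flu, ex2/flu was higher by 1.50 ± 0.28 (adjusted p 0.0223), whereas flu minus wild type was 1.04 ± 0.28 (adjusted p 0.0539).

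XTH18 and the neighbouring XTH19 were the 2 called lower of 5 measured genes with an XTH symbol (median -0.066). XTH19 (AT4G30290) gave 426 and 376 in ex1/flu, against 658 and 712 in ex2/flu (-0.77 ± 0.17, adjusted p 0.0263). In flu it gave 296 and 276, so that ex1/flu was above flu here, unlike XTH18. Its call was lost without array 2 of ex1/flu or either array of ex2/flu (-0.86 to -0.68, adjusted p 0.0315 to 0.234 over all single omissions). AT4G39670, a glycolipid transfer protein, gave 437 and 513 in ex1/flu, against 2120.1 and 2409 in ex2/flu (-2.25 ± 0.23, adjusted p 5.48e-05). It gave 703 and 479 in ex1/ex2/flu, 1049 and 1406 in flu and 901 and 583 in wild type, with ex1/flu below wild type on both arrays and ex2/flu above every other array. AT2G32140 and AT5G35735, chosen after their values were seen, showed the same order. For AT4G39670, AT2G32140 and AT5G35735, ex1/flu was not called lower than wild type (limma adjusted p 0.286, 0.135 and 0.164). Nor was ex2/flu called higher than flu (limma adjusted p 0.0791, 0.162 and 0.261). AT2G32140 gave 182 and 183 in ex1/flu, against 497 and 519 in ex2/flu, and 345 and 278 in wild type. AT5G35735 gave 1201 and 1263 in ex1/flu, against 3245 and 3418 in ex2/flu, and 2069 and 1704 in wild type.

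LHCB4.2 (AT3G08940), which encodes the minor light-harvesting protein CP29, was the exception among the photosynthesis genes. It gave 6848 and 7486 in ex1/flu, against 16239.8 and 16239 in ex2/flu (-1.18 ± 0.12, adjusted p 4.45e-05). The remaining arrays gave 7877 and 7359.6 in ex1/ex2/flu, 8552 and 7289 in flu and 15029 and 17011 in wild type. The ex2/flu line was thus at the wild-type level, and ex1/flu lay with flu and the triple mutant. Its paralogs showed no such gap: LHCB4.1 differed by -0.04 (adjusted p 0.997) and LHCB4.3 by -0.0001 (adjusted p 1). Of 10 measured photosynthesis genes LHCB4.2 was the only one called, and the median of the 10 was 0.007.

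In a further 4 genes ex1/flu, ex1/ex2/flu and flu were also lower than both ex2/flu and wild type, and all 5 lie on chromosome 3 within 4 Mb of FLU, by their positions in TAIR10.1. Named after their values were seen, they were AT3G07950 (related to rhomboid proteases), AT3G10860 (a subunit of the mitochondrial cytochrome bc1 complex), AT3G11230 (a Yippee-family protein) and AT3G11500 (the spliceosomal protein SmG). AT3G11500 gave 791 and 397 in ex1/flu, against 1516 and 1721 in ex2/flu, and 702 and 583 in ex1/ex2/flu, 437 and 488 in flu and 1586 and 1375 in wild type. AT3G10860 gave 3075 and 3339 in ex1/flu, against 5854 and 7048 in ex2/flu, and 3181 and 2944 in ex1/ex2/flu, 3461 and 3347 in flu and 6453 and 5568 in wild type. In both, ex2/flu matched wild type within the spread of the arrays and the other flu lines were lower. AT3G07950 gave 259 and 205 in ex1/flu, against 493 and 439 in ex2/flu (-1.01 ± 0.20, adjusted p 0.0129). With 561 and 686 in wild type, both of its ex2/flu arrays lay below wild type, unlike those of the other 4 genes. AT3G11230 gave 393 and 437 in ex1/flu, against 715 and 921 in ex2/flu (-0.97 ± 0.19, adjusted p 0.00873), and 854 and 652 in wild type. The call of AT3G07950 was lost without array 2 of ex1/flu or array 1 of ex2/flu (-1.18 to -0.85, adjusted p 0.00828 to 0.127), and that of AT3G11230 without array 1 of ex1/flu or array 2 of ex2/flu (-1.15 to -0.79, adjusted p 0.0101 to 0.14).

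Of the 147 probe sets lowered in flu, 9 were lower in ex1/flu than in ex2/flu, and only 5 of the 9 had 1 known locus. The others could not be placed. Among the lowered genes with a known locus, those within 4 Mb of FLU gave 5 of 29 lower in ex1/flu. Elsewhere 0 of 41 were lower and 2 were higher (4.88%, beside 0.0771% of all probe sets with 1 known locus). At an unadjusted p below 0.05 from limma, the counts were 8 lower and 1 higher of the 29, and 0 lower and 7 higher of the 41. Genes raised in flu gave 4 of 19 lower within the 4 Mb (21.1%) and 73 of 179 elsewhere (40.8%). The 4 Mb window held 713 of the 7786 probe sets with 1 known locus, so most genes of any kind lay outside it. In all, 15 of the 713 within the window were lower (2.1%, beside 1.55% of all probe sets with 1 known locus) and 2 higher. The shares lower within 4 Mb of EX1 (13 of 552, 2.36%) and of EX2 (12 of 552, 2.17%) were similar. The lowest difference was that of XTH18 near EX1 (-2.531) and that of DLAH near EX2 (-2.174). The other named genes near EX1 or EX2 are not listed here. Of the called genes named elsewhere, AT3G10930, PUB24, AT3G09540 and DRT100 lie within 4 Mb of FLU too. The flu allele was bred in from Landsberg erecta, as stated above, and the genotype of the lines along chromosome 3 was not analysed here.

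**Figure D5:**
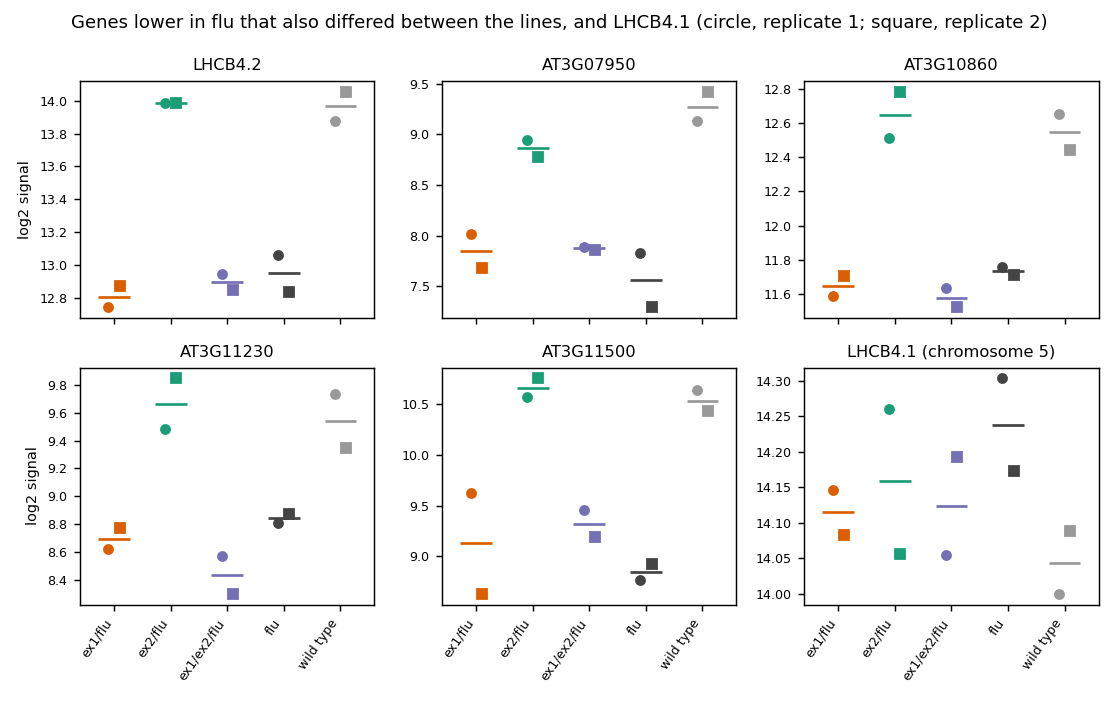
Log2 signal on the 10 arrays of the 5 chromosome 3 genes and of LHCB4.1, a paralog on chromosome 5, in the order ex1/flu, ex2/flu, ex1/ex2/flu, flu and wild type. In the first 5 panels the ex2/flu arrays lie above those of ex1/flu, ex1/ex2/flu and flu, and in AT3G07950 both lie below wild type, and LHCB4.1 has signals between 16389 and 20218 on all arrays.

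Of the 14 probe sets higher in ex1/flu (0.097% of all tested), 6 had a gene name and 5 met the rule for naming. AT3G09540, a pectate lyase-like protein, gave 709.8 and 568 in ex1/flu, against 402 and 240.5 in ex2/flu (1.03 ± 0.23, adjusted p 0.0289). It gave 532 and 694 in ex1/ex2/flu, 379 and 452 in flu and 179 and 148 in wild type, so every flu line was above wild type. CRR42 (AT5G20935), which takes part in building the plastid NDH complex, gave 666 and 775 in ex1/flu, against 375 and 461 in ex2/flu (0.79 ± 0.17, adjusted p 0.0169). GIS (AT3G58070), a zinc-finger factor of trichome formation, gave 546 and 627 in ex1/flu, against 299 and 376 in ex2/flu (0.80 ± 0.19, adjusted p 0.0367). For CRR42 and GIS, ex2/flu lay near flu (330.4 and 327, and 316 and 312) and ex1/flu nearer to wild type (719 and 718, and 594 and 829).

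AT2G15020 gave 1231 and 987 in ex1/flu, against 654 and 492 in ex2/flu (0.96 ± 0.19, adjusted p 0.0105). DRT100 (AT3G12610), a leucine-rich repeat protein named for tolerance of DNA damage, gave 3822 and 2645 in ex1/flu, against 2129 and 1703 in ex2/flu (0.74 ± 0.17, adjusted p 0.0312). Each of these 5 calls was lost when some array was left out. AT3G09540 was 0.87 (adjusted p 0.211) without ex1/flu array 1 and 0.66 (adjusted p 0.384) without ex2/flu array 2, and AT2G15020 0.80 (adjusted p 0.0982) without ex1/flu array 1 and 0.75 (adjusted p 0.157) without ex2/flu array 2. CRR42 was 0.68 (adjusted p 0.111) without ex1/flu array 2 and 0.64 (adjusted p 0.224) without ex2/flu array 1. GIS lost its call in 7 of 10 such fits (0.64 to 0.97, adjusted p 0.0279 to 0.367) and DRT100 in 8, all but those without array 2 of ex1/flu or array 1 of ex2/flu (0.47 to 1.00, adjusted p 0.00277 to 0.332). The sixth, AT4G09040, was dimmer (309 and 471 in ex1/flu, against 179 and 223 in ex2/flu) and differed by 0.93 ± 0.21 (adjusted p 0.0276), with its call lost without array 2 of ex1/flu or array 1 of ex2/flu (0.63 to 1.24, adjusted p 0.00542 to 0.276).

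Several groups of genes had no called member. Of 9 genes of tetrapyrrole synthesis, the pathway that FLU restrains, none was called by limma and 0 had an unadjusted p below 0.05 (median -0.003, range -0.20 to 0.36). PORB, the light-dependent protochlorophyllide reductase, was at -0.11 (adjusted p 0.985). Methyltransferase CHLM was at -0.02 and geranylgeranyl reductase AT1G74470 at 0.07. None of 69 plastid-encoded probe sets was called (median 0.006, range -0.65 to 0.60), with 5 lower and 1 higher at an unadjusted p below 0.05. Their brightest members atpB and atpE, subunits of the plastid ATP synthase, were at 0.09 and -0.01. Scavengers of superoxide and peroxide, 5 measured, had a median of -0.028 (thylakoid peroxidase TAPX -0.14, peroxiredoxin AT3G11630 -0.03), and 0 passed at an unadjusted p below 0.05. Cytosolic ribosomal proteins, 7 measured, had a median of 0.050, with AT5G15200 at 0.01 and AT2G41840 at -0.02, and again 0 at the unadjusted p. The differences in this group of lists were small, but a missed threshold does not show equal levels.

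Genes of cold and drought, 3 measured, had a median of 0.040, with COR15A at 0.08, COR47 at 0.04 and COR15B at -0.56 (adjusted p 0.265). Dark starvation genes, 5 measured, were all slightly above 0 and uncalled (median 0.211), among them the leucine breakdown genes MCCA at 0.21, MCCB at 0.34 and IVD at 0.66 (adjusted p 0.402). The tryptophan gene AT2G04400 was at 0.12 and the clock gene GI at 0.81 (adjusted p 0.81). GI was dim, with both ex2/flu arrays below the filter level. Of the listed glutathione and glucosyl transferases 2 were measured, both dim, and neither passed. UGT73B5, a glucosyltransferase, gave 59.9 and 56.7 in ex1/flu, against 209 and 151 in ex2/flu (-1.61 ± 0.44, adjusted p 0.0932). The glutathione transferase GSTU25 gave 14.4 and 59.6 in ex1/flu, against 95.1 and 100.2 in ex2/flu (-1.74 ± 0.57, adjusted p 0.243). In both, ex1/flu was below the filter level on both arrays, so the true gap is not set by these values. Their families lay near 0, with a median of 0.052 over 7 measured genes with a GSTU symbol, none of them called, and of 0.099 over 25 with a UGT symbol. The 1 UGT gene called, UGT73B1 (AT4G34138, named after its values were seen), gave 79.4 and 90.8 in ex1/flu, against 193 and 249 in ex2/flu (-1.37 ± 0.22, adjusted p 0.00238), and -1.18 (adjusted p 0.0593) without ex2/flu array 2.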

How the data were processed

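The 10 ATH1 arrays measured RNA of rosette leaves. The deposited table gave 1 signal per probe set and array, a linear intensity made with GCOS 1.2 and MAS5, per the submitters' processing notes. The scaling target was not found in the labels. The authors' values were log2-transformed with no offset and no further normalization. Leaving aside 64 control probe sets, 22746 remained, and 14435 of them (63.5%) were tested because 2 or more of the 10 arrays had them at or above that array's 40th percentile. A limma 3.58.1 model (R 4.3.3; variance moderated by eBayes with its trend on signal) gave each genotype 1 mean over all 10 arrays and had 5 residual degrees of freedom. The spread was therefore pooled over all genotypes. Adjusted p-values are Benjamini-Hochberg over the 14435, with calls below 0.05, and the fit was tested on simulated data.

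Probe sets were named through the array's annotation table, which names no genome build: 13513 had 1 gene, 503 several, and 8730 were not listed, among them 132 of the 264 lower and 8 of the 14 higher. RefSeq's TAIR10.1 table gave loci and neighbourhood. The genes named are EX1, the 14 lowest and up to 14 highest (5 were found) that have 1 gene, a call, separated arrays and a higher-line mean at or above 406.5, and from each list at most 3 genes that were called, or its 2 brightest where none was. Others are list members given for completeness or were chosen after their values were seen. The comparison, lists and members were chosen with earlier results of these data known. No sequence is printed. Alternatives changed the filter, trend, offset, normalization, arrays fitted and block terms. The poly-A term was added after the data were seen. Figures used Python 3.11.15 and matplotlib 3.10.9.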

Additional observations from a re-analysis of the deposited data

How the results depend on the processing

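The 42 called differences of named genes kept their sign under the 10 other settings and without any 1 of the 10 arrays. A sign could change only with quantile normalization, with the offset or without 1 of the 4 compared arrays. All other settings leave each gene's difference between the lines as it was, and a count has no sign. The replicate numbers are shared by the labels without a stated meaning, and the deviations of ex1/flu and ex2/flu arrays of the same number correlated at 0.431, against -0.086 to 0.088 for other pairs of genotypes. With the replicate block in the fit of all 10 arrays, 288 probe sets were called (270 lower, 18 higher) beside 278 without it, and none of 42 named calls was lost. With the replicate block in a fit of the 4 compared arrays alone, 858 were called (571 lower, 287 higher). That fit leaves 1 residual degree of freedom. It called 31 list members lower, beside 21 in the main fit. Among the uncalled genes named by the rule, it added UGT73B5, GSTU25 and CHI. Uncalled list members given for completeness were not followed singly. The count of 14 higher probe sets was 9 with no filter, 3 in a fit of the 4 arrays without a block, and 29 with the poly-A term, while the lower count kept within 1.5 times in those 3 settings; the cause was not tested. The median of -0.735 over flu-raised probe sets was -0.887 with no filter, -0.976 with no trend, -0.713 after quantile normalization, -0.659 with an offset of 32, -0.993 with a term for the hybridisation controls (which set 1 wild-type array apart) and -0.618 with the poly-A term; the set of raised probe sets differs between these fits by construction. Leaving out 1 array gave 185 to 277 called, 166 to 264 lower, 11 to 27 higher, 159 to 216 at 2-fold, 134 to 187 of the flu-raised set, a median of -1.126 to -0.57, an EX1 difference of -1.382 to -1.213 and 17 to 23 called members of the lists. Where a line was left with 1 array, that array was taken to vary like the other genotypes. Of the 42 called genes named, 26 kept their call in all 10 such fits. With no filter 5 of the 42 lost it, with no trend 10, in the fit of 4 arrays 10 and with the term for the hybridisation controls 1.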
